A study of Mus musculus with 34 samples.

Results

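Sh2d4a, Padi2, Serpinb1a, Tmem86a and Sort1 are 5 of the 23011 genes in a table of mouse hindlimb muscle expression. They were chosen by their fold changes in soleus, where progressive weighted wheel running (PoWeR), voluntary running on a wheel loaded with weight, moved each of them the same way in aged and in young mice. Their difference between PoWeR and sedentary soleus is therefore described without a test. Tests are given on muscle, on age and on PoWeR in the libraries labelled plantaris. The tests on muscle and on age use soleus libraries from which the genes were chosen, so they are not independent of that choice. Among 57 genes that passed the test in the same direction in both soleus comparisons, 31 higher and 26 lower, 4 are of these 5. Sort1 is the one outside that set, since it did not pass in aged soleus.

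All mice were female, and the labels give no strain. The groups were aged PoWeR soleus (24 months, 8 weeks of PoWeR), aged sedentary soleus (24 months), young PoWeR soleus (6 months, 8 weeks of PoWeR) and young sedentary soleus (6 months), and the same 4 for plantaris. Each aged sedentary group has 5 libraries and every other group has 4, 34 in all. Mice of all groups were fasted overnight before death, and for PoWeR mice the wheel was locked for the last 24 h.

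Soleus is a postural muscle rich in slow fibres, and plantaris is a fast muscle beside it. The 5 genes belong to different processes. Sh2d4a encodes an adaptor protein with an SH2 domain, which in human liver cells is described as a brake on signalling from the interleukin 6 receptor to STAT3. Padi2 encodes peptidylarginine deiminase 2, a calcium-dependent enzyme that converts arginine in proteins to citrulline and is the form of the family known from skeletal muscle. Tmem86a encodes a membrane protein of the endoplasmic reticulum described as a lysoplasmalogenase, an enzyme that breaks down vinyl ether lipids, and as a target of the oxysterol receptor LXR. Serpinb1a encodes a cytosolic inhibitor of neutrophil elastase, cathepsin G and related proteases. Sort1 encodes sortilin, a sorting receptor of the VPS10 family that carries cargo between the Golgi and endosomes, is a part of the vesicles that store the glucose transporter GLUT4, and binds the precursors of neurotrophins.

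On mm10, Sh2d4a lies on the plus strand at chr8:68276567-68347699 and Padi2 on the plus strand at chr4:140906344-140952586. Serpinb1a lies on the minus strand at chr13:32842092-32851185. Tmem86a lies on the plus strand at chr7:47050601-47054777 and Sort1 on the plus strand at chr3:108284082-108361511. All 5 are annotated as protein coding, and a value is the count over a whole gene, not over 1 exon or isoform. Their annotated exons together cover 2.72 kb in Sh2d4a, 5.01 kb in Padi2, 2.3 kb in Serpinb1a, 1.89 kb in Tmem86a and 7.57 kb in Sort1.

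The promoter table from RefSeq (GRCm38.p6, 250 bases before to 50 after a gene's start) matched 2 of the 5 genes, Padi2 and Tmem86a. They are shown as the only ones with an entry, and the part of their motifs in the PoWeR changes was not tested. Capitals mark GGAAA, the core of sites for the calcium-regulated NFAT factors, in Padi2 (chr4:140906110-140906409, plus strand), and TGACGT, which is contained in the cAMP response element, in Tmem86a (chr7:47050390-47050689, plus strand).
Padi2: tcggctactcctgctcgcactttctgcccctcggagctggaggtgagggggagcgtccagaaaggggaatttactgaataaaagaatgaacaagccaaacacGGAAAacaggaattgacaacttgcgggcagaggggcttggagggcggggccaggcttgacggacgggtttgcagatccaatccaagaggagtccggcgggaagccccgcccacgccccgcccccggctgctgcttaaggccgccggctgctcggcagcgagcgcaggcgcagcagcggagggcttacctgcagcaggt
Tmem86a: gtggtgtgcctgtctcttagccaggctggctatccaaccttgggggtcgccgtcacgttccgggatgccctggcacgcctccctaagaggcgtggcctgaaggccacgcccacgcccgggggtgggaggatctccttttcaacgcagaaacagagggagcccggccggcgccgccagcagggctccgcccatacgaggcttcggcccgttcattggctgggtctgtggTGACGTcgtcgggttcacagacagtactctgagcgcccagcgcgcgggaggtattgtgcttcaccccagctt
The motif in Padi2 begins 148 bases before the RefSeq start, and the one in Tmem86a begins 22 bases before it. GGAAA occurred on either strand in 61.3% of all 32851 windows of this length and TGACGT in 7.51%. CAGCTG, an E-box of the form bound by MyoD, and AGGTCA, a half-site of nuclear receptors, each occurred in 16.3% of all windows and in neither of these. The motifs were searched separately and share no base here. Both windows are rich in G and C, with 63.3% in Padi2 and 66.0% in Tmem86a, against a median of 52.7% over all windows.

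Total counts ran from 15237626 to 26250461 per library. The myosin heavy chain genes Myh7, Myh1 and Myh4 and the fibre lists separate aged soleus from aged plantaris as labelled. Myh2, another such gene, overlaps between the muscles of PoWeR mice, at 8602 to 17690 CPM in soleus and 4926 to 11970 CPM in plantaris. A list of 9 slow fibre genes summed to 43430 to 59480 CPM in the aged soleus libraries of both groups and 190 to 3660 CPM in the aged plantaris ones (CPM, the count of a gene relative to its library's total, each total adjusted by a TMM factor over all libraries). In the libraries labelled young plantaris this sum was 44070 to 57070 CPM, which is in the range of soleus and goes against the label, so they are called by their label throughout. A second trait of the libraries is the share of counts in an rRNA repeat gene, which was under 0.7% in 5 libraries: replicate 3 of young PoWeR soleus, replicates 1, 2 and 4 of the labelled young plantaris PoWeR group and replicate 3 of its sedentary group. Nothing in the labels states that replicates are different animals, and p-values then measure only the spread between these libraries, which may be technical. Whether aged and young libraries were prepared and sequenced together is not stated in the labels, and age and any such batch cannot be told apart.

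Per kilobase of exon, Padi2 had the highest mean of the 5 genes in every group, with the smallest lead in young PoWeR soleus, at 9.87 CPM per kb for Padi2 and 8.31 for Sh2d4a. In aged sedentary soleus the mean levels were 27.8 CPM per kb for Padi2, 2.99 for Tmem86a, 2.38 for Sort1, 2.14 for Sh2d4a and 1.19 for Serpinb1a. In aged sedentary plantaris they were 64.0 CPM per kb for Padi2, 9.14 for Sort1, 2.73 for Sh2d4a, 1.998 for Tmem86a and 1.04 for Serpinb1a. Serpinb1a rests on the fewest reads, with 27 to 245 expected counts per library, and Padi2 on the most, with 628 to 6789.

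**Figure D1:**
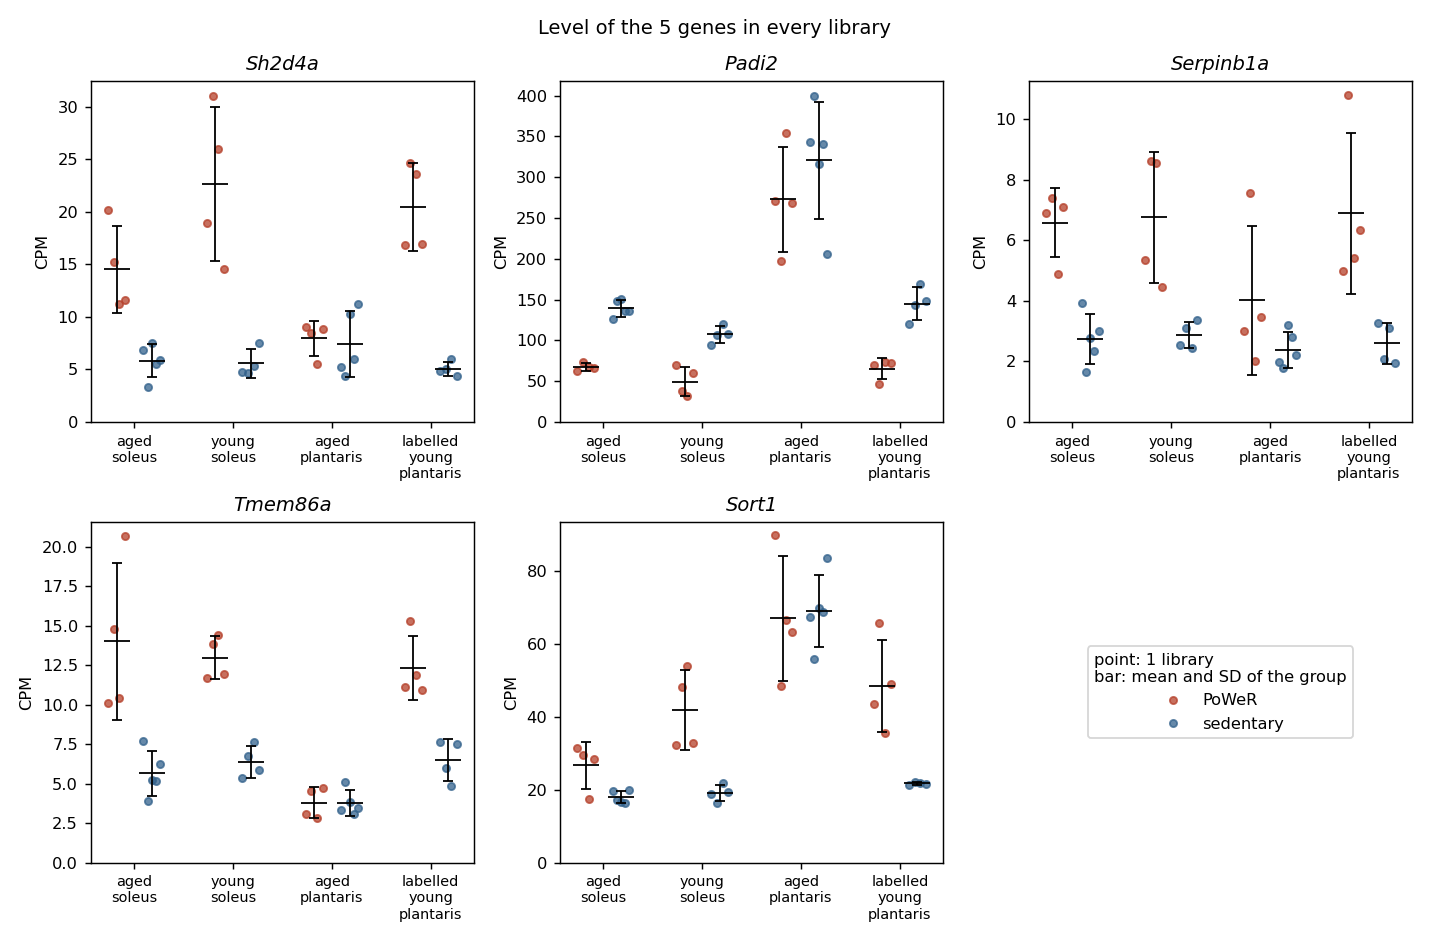
Level of each of the 5 genes in CPM (vertical axis, from 0) in every library, with PoWeR left of sedentary within each muscle and age; points are single libraries and bars the group mean and SD. In soleus the PoWeR libraries of Sh2d4a, Serpinb1a and Tmem86a lie above the sedentary ones and those of Padi2 below, while in aged plantaris the groups overlap for all 5 genes.

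The adaptor gene Sh2d4a had 20.2, 15.2, 11.2 and 11.6 CPM in aged PoWeR soleus, against 6.86, 3.36, 7.50, 5.52 and 5.93 CPM in aged sedentary soleus. It had 18.9, 31.1, 26.0 and 14.6 CPM in young PoWeR soleus, against 4.72, 4.67, 5.34 and 7.54 CPM in young sedentary soleus. Every PoWeR library was above every sedentary library at both ages, and the sedentary groups of the 2 ages span nearly the same range. The log2 fold change of PoWeR against sedentary was 1.30 ± 0.24 in aged and 2.05 ± 0.26 in young soleus (± is the SE of the fit), the greatest of the 5 genes in young soleus.

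The citrullinating enzyme gene Padi2 was the one gene of the 5 with less RNA after PoWeR. It had 62.2, 73.5, 67.1 and 65.8 CPM in aged PoWeR soleus, against 126, 148, 150, 136 and 136 CPM in aged sedentary soleus. In young soleus it had 69.7, 37.4, 31.2 and 59.5 CPM with PoWeR, against 94.2, 107, 120 and 108 CPM without. The groups do not overlap at either age, and the aged PoWeR libraries are closely grouped, with a coefficient of variation of 6.98%, against 36.7% in the young PoWeR ones. The log2 fold changes were -1.07 ± 0.17 in aged and -1.09 ± 0.17 in young soleus.

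The lysoplasmalogenase gene Tmem86a had 10.1, 14.8, 10.4 and 20.7 CPM in aged PoWeR soleus, against 7.69, 3.91, 5.22, 5.16 and 6.27 CPM in aged sedentary soleus. It had 11.7, 13.8, 14.4 and 11.9 CPM in young PoWeR soleus, against 5.34, 6.78, 7.64 and 5.86 CPM in young sedentary soleus. No PoWeR library reached down to the sedentary range, and the spread was wider among the aged PoWeR libraries than among the young ones. The log2 fold changes were 1.29 ± 0.21 in aged and 1.05 ± 0.22 in young soleus.

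The protease inhibitor gene Serpinb1a had 6.91, 7.40, 4.90 and 7.09 CPM in aged PoWeR soleus, against 3.93, 1.65, 2.78, 2.34 and 2.995 CPM in aged sedentary soleus. In young soleus it had 5.36, 8.62, 8.56 and 4.47 CPM with PoWeR, against 2.55, 3.09, 2.45 and 3.36 CPM without. All PoWeR libraries lay above the sedentary ones, and both ages gave nearly the same levels. The log2 fold changes were 1.24 ± 0.24 in aged and 1.27 ± 0.26 in young soleus. In mouse this gene has the near copies Serpinb1b and Serpinb1c, between which reads may be split. Serpinb1b averaged at most 0.0521 CPM in any group, and Serpinb1c averaged 2.44 ± 1.56 CPM in aged PoWeR soleus and 1.74 ± 0.53 CPM in aged sedentary soleus (SD, n = 4 and 5).

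The sorting receptor gene Sort1 had 31.4, 29.5, 17.4 and 28.6 CPM in aged PoWeR soleus, against 19.6, 17.2, 16.7, 16.4 and 20.01 CPM in aged sedentary soleus. In young soleus it had 32.3, 48.3, 54.1 and 32.9 CPM with PoWeR, against 18.9, 16.3, 21.8 and 19.5 CPM without. The young groups do not overlap, but the aged PoWeR library with 17.4 CPM, replicate 14, falls within the sedentary range. The log2 fold change was 0.55 ± 0.17 in aged soleus, or 0.71 without that library, and 1.16 ± 0.18 in young soleus.

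By the test over all genes that chose most of them (edgeR quasi-likelihood, Benjamini-Hochberg adjusted p under 0.05), 4 of the 5 were called in aged soleus, where 0.857% of 14934 genes tested were called, and 5 of 5 in young soleus, where 12.9% were. The groups did not overlap for 4 of the 5 genes in aged soleus, as for 6.79% of genes tested, and for 5 of 5 in young soleus, as for 15.1%. Without aged PoWeR replicate 12, 2 were called in aged soleus. These counts describe the choice and nothing is read from them.

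In some groups the 5 genes put the same libraries at the extreme. In young PoWeR soleus, replicates 2 and 3 were the 2 libraries farthest from the sedentary level for 5 of 5 genes, with the highest Sh2d4a, Serpinb1a, Tmem86a and Sort1 and the lowest Padi2. In the labelled young plantaris PoWeR group, replicate 2 was the farthest for 5 of 5. In aged PoWeR soleus no library was the farthest for more than 3 of the 5, and replicate 14 was the nearest to the sedentary level for 3. The share of counts in mitochondrially encoded genes was lower in the 2 young soleus libraries, 13.5% and 10.7%, than in replicates 1 and 4, 17.2% and 18.5%, and all were below the 21.3 to 23.1% of young sedentary soleus. Replicate 3 of them is also 1 of the libraries with a low rRNA repeat share. The part of either share in the order of the libraries was not tested.

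**Figure D2:**
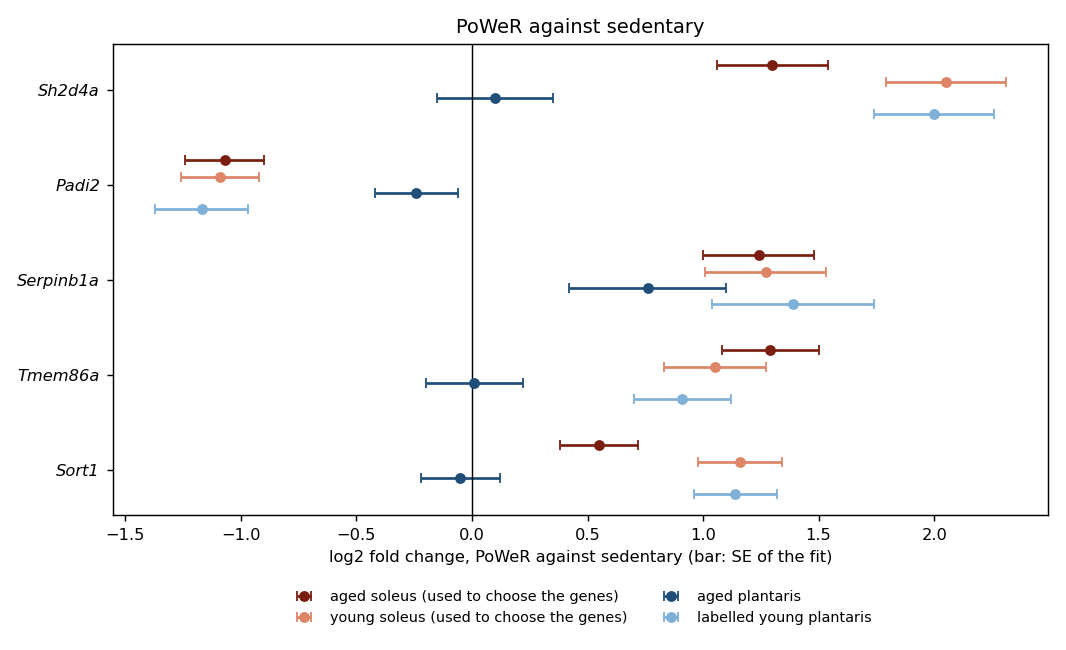
Log2 fold change of PoWeR against sedentary for the 5 genes (horizontal axis; bars are the SE of the fit) in aged soleus, young soleus, aged plantaris and the libraries labelled young plantaris, with the 2 soleus comparisons used to choose the genes. Aged plantaris values lie between -0.24 and 0.76, while the libraries labelled young plantaris lie at 2.0, -1.17, 1.39, 0.91 and 1.14 in the order drawn.

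In aged plantaris none of the 5 genes passed the test for PoWeR, in a comparison in which 0.0262% of 15280 genes were called, and the groups overlapped for all 5 genes, while they did not for 2.86% of all genes. Sh2d4a had 9.04, 8.48, 5.51 and 8.84 CPM in aged PoWeR plantaris, against 5.27, 4.35, 10.3, 6.01 and 11.2 CPM in aged sedentary plantaris. Padi2 had 271, 197, 355 and 268 CPM in the PoWeR libraries, against 343, 400, 316, 340 and 206 CPM in the sedentary ones. Both pairs of groups overlap widely, and the log2 fold changes were 0.10 ± 0.25 for Sh2d4a (adjusted p = 0.931) and -0.24 ± 0.18 for Padi2 (adjusted p = 0.693).

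Tmem86a had 3.06, 4.55, 2.86 and 4.75 CPM in aged PoWeR plantaris, against 3.37, 5.12, 3.85, 3.07 and 3.45 CPM in aged sedentary plantaris. Sort1 had 90.0, 48.6, 66.5 and 63.4 CPM in the PoWeR libraries, against 67.4, 55.8, 70.1, 68.8 and 83.6 CPM in the sedentary ones. The groups overlap for both genes, with log2 fold changes of 0.01 ± 0.21 for Tmem86a (adjusted p = 0.992) and -0.05 ± 0.17 for Sort1 (adjusted p = 0.953).

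Serpinb1a had 2.995, 7.57, 2.02 and 3.45 CPM in aged PoWeR plantaris, against 1.97, 1.77, 3.18, 2.80 and 2.19 CPM in aged sedentary plantaris. One library, replicate 12, stands far above the rest, and the others overlap with the sedentary range. The log2 fold change was 0.76 ± 0.34 (adjusted p = 0.472), or 0.23 without replicate 12. It was the only 1 of the 5 with an unadjusted p under 0.05, at 0.0368, and DESeq2 called 0 of the 5. Replicate 12 also had the highest summed level in its group of the macrophage list (326.7 CPM), the Schwann cell list (285.8 CPM) and the fibro-adipogenic progenitor list (1124 CPM). Its fast fibre sum was the lowest of the group, at 77650 CPM. Its neutrophil list summed to 7.86 CPM, below the 12.3 CPM of replicate 15. The part of these lists in the Serpinb1a level was not tested.

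In the libraries labelled young plantaris, all 5 genes differed between PoWeR and sedentary without overlap, as did 7.68% of the 15280 genes, and 3 of the 5 were called, as were 0.223% of the genes. These libraries are soleus-like and their names share numbers with the young soleus libraries, so they are no independent sample of another muscle, and earlier results for some of the genes were known. Sh2d4a rose, with 16.8, 24.6, 23.6 and 16.9 CPM in PoWeR and 4.82, 5.02, 6.01 and 4.35 CPM in sedentary libraries (log2 fold change 2.0 ± 0.26, adjusted p = 0.00386). Padi2 fell, with 69.9, 46.5, 73.2 and 71.8 CPM in PoWeR and 120, 144, 169 and 148 CPM in sedentary libraries (log2 fold change -1.17 ± 0.20, adjusted p = 0.0175). Sort1 rose, with 43.7, 65.7, 35.7 and 49.0 CPM in PoWeR and 21.3, 22.2, 21.9 and 21.7 CPM in sedentary libraries (log2 fold change 1.14 ± 0.18, adjusted p = 0.0154). The sedentary Sort1 values are the tightest of any group of the 5 genes, with a coefficient of variation of 1.81%.

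Serpinb1a had 4.99, 10.8, 5.41 and 6.34 CPM in PoWeR and 3.27, 2.07, 3.10 and 1.96 CPM in sedentary libraries labelled young plantaris (log2 fold change 1.39 ± 0.35, adjusted p = 0.0966). Tmem86a had 11.1, 15.3, 11.9 and 10.9 CPM in PoWeR and 7.65, 6.01, 4.86 and 7.51 CPM in sedentary libraries (log2 fold change 0.91 ± 0.21, adjusted p = 0.0701). Neither passed the threshold, although no library of one group lies within the range of the other. The fit of only these 2 groups called Serpinb1a (adjusted p = 0.0464) and Tmem86a (adjusted p = 0.0486). DESeq2 also called both (adjusted p = 0.0176 and 0.00628). With each of the 8 libraries left out in turn, neither was called.

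The low rRNA repeat share falls unevenly on these groups, on 3 PoWeR libraries and 1 sedentary library. Among libraries under 0.7%, Sh2d4a had 16.8 to 24.6 CPM in PoWeR and 6.01 CPM in sedentary, and among the others it had 23.6 CPM in PoWeR and 4.35 to 5.02 CPM in sedentary. Padi2 had 46.5 to 71.8 CPM in PoWeR and 168.7 CPM in sedentary among libraries under the limit, against 73.2 CPM in PoWeR and 120 to 148 CPM in sedentary among the others. Sort1 had 43.7 to 65.7 CPM in PoWeR and 21.9 CPM in sedentary under the limit, and 35.7 CPM in PoWeR and 21.3 to 22.2 CPM in sedentary over it. One arm of each set is a single library, and the part of the share was not tested within them. With a term for the share, Sh2d4a alone was called, and Padi2 (-1.19, adjusted p = 0.0745) and Sort1 (0.97, adjusted p = 0.0857) were not. The calls of Padi2 and Sort1 were also lost without PoWeR replicate 2 (-1.03 and 0.96), without sedentary replicate 2 (-1.17 and 1.16) and without sedentary replicate 4 (-1.16 and 1.13), at adjusted p of 0.0637 to 0.0921.

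Set against aged plantaris, aged soleus had less Padi2 and less Sort1 whether or not the mice had run. In aged sedentary mice 2 of the 5 genes were called between the muscles, against 32.9% of 14823 genes. Padi2 averaged 139 ± 10.1 CPM in soleus and 321 ± 71.4 CPM in plantaris (SD, n = 5 each), a log2 fold change of -1.19 ± 0.15 (adjusted p = 2.31e-06). Sort1 averaged 17.98 ± 1.71 CPM in soleus and 69.1 ± 9.86 CPM in plantaris, a log2 fold change of -1.93 ± 0.16 (adjusted p = 3.48e-08). For both genes every soleus library lies below every plantaris library, a lack of overlap in one direction or the other that 26.5% of genes showed.

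The other genes did not pass the test between the muscles of sedentary mice. Tmem86a averaged 5.65 ± 1.41 CPM in soleus and 3.77 ± 0.804 CPM in plantaris (SD, n = 5 each), just short of the threshold (log2 fold change 0.60 ± 0.23, adjusted p = 0.0529). It was called without replicate 13 of soleus (0.66), without replicate 13 of plantaris (0.74) and in the fit of only these 2 groups (0.58, adjusted p = 0.0451). Sh2d4a (-0.33, adjusted p = 0.369) and Serpinb1a (0.22, adjusted p = 0.629) overlapped widely.

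In aged PoWeR mice 4 of the 5 genes were called between the muscles, against 22.5% of 14823 genes. This comparison contains the soleus libraries on which the genes were chosen, and its fit does not use the replicate numbers that the muscles share. Padi2 averaged 67.1 ± 4.68 CPM in soleus and 273 ± 64.6 CPM in plantaris (SD, n = 4 each), a log2 fold change of -2.01 ± 0.17 (adjusted p = 3.94e-08). Sort1 averaged 26.7 ± 6.33 CPM in soleus and 67.1 ± 17.1 CPM in plantaris, a log2 fold change of -1.32 ± 0.18 (adjusted p = 1.95e-05). Tmem86a averaged 14.01 ± 4.95 CPM in soleus and 3.80 ± 0.984 CPM in plantaris, a log2 fold change of 1.88 ± 0.26 (adjusted p = 1.76e-05). The 2 muscles do not overlap for any of these 3 genes, nor for Sh2d4a, as for 20.8% of all genes.

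Sh2d4a averaged 14.5 ± 4.14 CPM in soleus and 7.97 ± 1.66 CPM in plantaris of aged PoWeR mice (log2 fold change 0.87 ± 0.29, adjusted p = 0.0361). Its call was lost when any of 5 libraries was left out, which were plantaris replicates 12 (0.91), 14 (0.73) and 15 (0.91) and soleus replicates 10 (0.64) and 12 (0.85). It was also lost with no filter on low counts (0.84, adjusted p = 0.0604). With the replicate numbers shared by the muscles as a block, Sh2d4a was called (0.86, adjusted p = 0.00288). Serpinb1a averaged 6.57 ± 1.14 CPM in soleus and 4.01 ± 2.45 CPM in plantaris, with overlap (log2 fold change 0.70 ± 0.33, adjusted p = 0.137). It was called without plantaris replicate 12 (1.23, adjusted p = 0.00342) and with the replicate numbers shared by the 2 muscles as a block (0.85, adjusted p = 0.0315).

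Padi2 and Sort1 were both lower in soleus than in plantaris, but their levels with PoWeR stood on opposite sides of the sedentary soleus level. The Padi2 level in aged PoWeR soleus is farther from the plantaris levels than that in sedentary soleus, and the Sort1 level is nearer to them. Fibre lists of 9 genes each are given beside this. The fast fibre sum was 30910 to 35980 CPM in aged PoWeR soleus and 34450 to 42510 CPM in aged sedentary soleus, and in aged plantaris it was 77650 to 160700 CPM with PoWeR and 126800 to 162900 CPM without. In whole muscle, fewer fibres or cells of a kind and less RNA per cell cannot be told apart, and the part of fibre type in these levels was not tested.

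**Figure D3:**
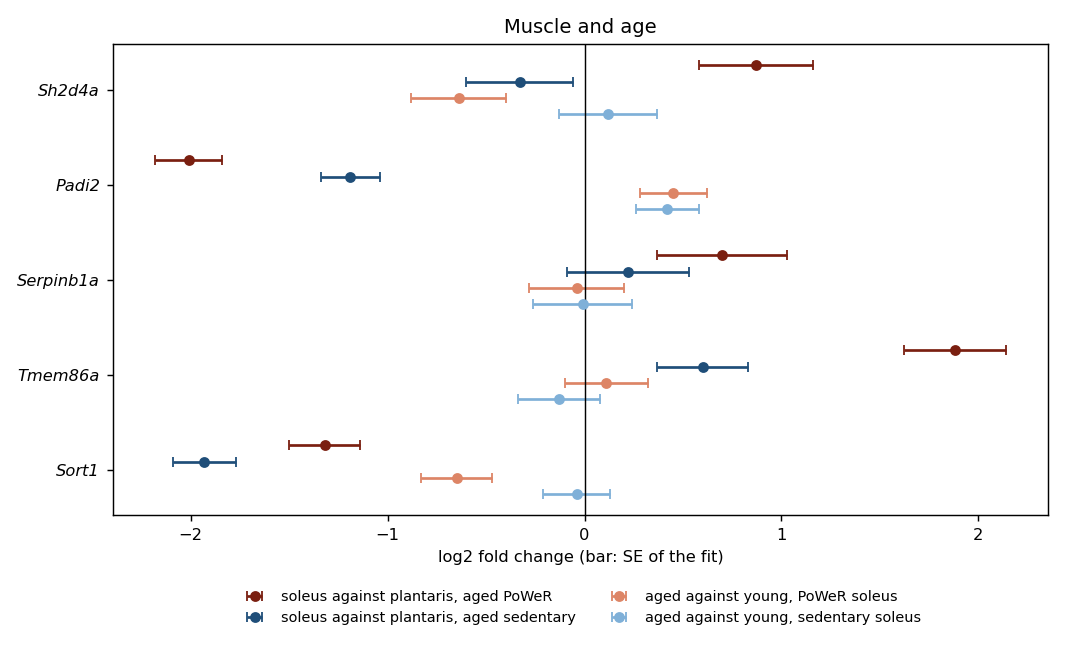
Log2 fold change of the 5 genes (horizontal axis; bars are the SE of the fit) between soleus and plantaris of aged mice and between aged and young soleus, each with and without PoWeR. Padi2 and Sort1 lie left of 0 for muscle in both states, and Tmem86a reaches 1.88 between the muscles of PoWeR mice; the age differences all lie between -0.65 and 0.45.

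Differences with age were smaller than those between the muscles for Padi2 and Sort1. Both age comparisons lie within the soleus libraries on which the genes were chosen. In sedentary soleus 1 of the 5 genes was called between aged and young mice, against 36.2% of 14934 genes. Padi2 averaged 139 ± 10.1 CPM in aged and 107 ± 10.7 CPM in young sedentary soleus (SD, n = 5 and 4), and no libraries overlap, as for 32.9% of genes (log2 fold change 0.42 ± 0.16, adjusted p = 0.0495). The value stands at the edge of the threshold, and leaving out any 1 of the 9 libraries ended the call, with log2 fold changes of 0.35 to 0.46. DESeq2 did not call it either (0.40, adjusted p = 0.059), while the fit of only these 2 groups did (adjusted p = 0.00144). Sh2d4a (0.12), Serpinb1a (-0.01), Tmem86a (-0.13) and Sort1 (-0.04) had adjusted p of 0.659 to 0.979.

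In PoWeR soleus, again among libraries on which the genes were chosen, 3 of the 5 genes were called between aged and young mice. Beside them, 37.9% of 14934 genes were called. Sort1 averaged 26.7 ± 6.33 CPM in aged and 41.9 ± 10.99 CPM in young PoWeR soleus (SD, n = 4 each), with every aged library below every young one, a lack of overlap found for 30.5% of genes (log2 fold change -0.65 ± 0.18, adjusted p = 0.00667). This call stood with any 1 of the 8 libraries left out. Sh2d4a averaged 14.5 ± 4.14 CPM in aged and 22.6 ± 7.33 CPM in young PoWeR soleus, with overlap (log2 fold change -0.64 ± 0.24, adjusted p = 0.047). Padi2 averaged 67.1 ± 4.68 CPM in aged and 49.5 ± 18.2 CPM in young PoWeR soleus, with overlap (log2 fold change 0.45 ± 0.17, adjusted p = 0.0482).

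The age calls of Sh2d4a and Padi2 depended on single libraries. The Sh2d4a call was lost without aged replicate 12 (-0.66), 14 (-0.53) or 15 (-0.54) or young replicate 2 (-0.45) or 3 (-0.56). The Padi2 call was lost without aged replicate 10 (0.49), 12 (0.40), 14 (0.45) or 15 (0.46) or young replicate 2 (0.33) or 3 (0.28). Serpinb1a (-0.04, adjusted p = 0.916) and Tmem86a (0.11, adjusted p = 0.699) were not called. The fast fibre sum was also higher in aged sedentary soleus, 34450 to 42510 CPM, than in young sedentary soleus, 29330 to 30420 CPM. In PoWeR soleus it was 30910 to 35980 CPM in aged and 19320 to 31840 CPM in young libraries, which overlap. The sum of 8 fibro-adipogenic progenitor markers, none at 0, was 334 to 435 CPM in aged and 500.0 to 999 CPM in young PoWeR soleus, and 5 of the 8 were called lower with age (median log2 fold change -0.98). In sedentary soleus that sum was 202 to 536 CPM in aged and 480 to 706 CPM in young libraries, which overlap. The part of either list in the age differences was not tested.

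Over the 8 groups, the order of the levels differs among the genes. Padi2 was highest in aged plantaris, at 273 CPM with PoWeR and 321 CPM without, whose libraries overlap, and lowest in young PoWeR soleus (49.5 CPM). Between them come the sedentary libraries labelled young plantaris (145 CPM) and aged sedentary soleus (139 CPM), which overlap, then young sedentary soleus (107 CPM), which overlaps with the first of them, then aged PoWeR soleus (67.1 CPM) and the labelled young plantaris PoWeR libraries (65.3 CPM), which overlap with each other and with young PoWeR soleus. Sort1 was highest in the same 2 aged plantaris groups, then in the labelled young plantaris PoWeR libraries (48.5 CPM), which overlap with aged PoWeR plantaris, and young PoWeR soleus (41.9 CPM), which overlaps with them, and then in aged PoWeR soleus (26.7 CPM). Its 3 sedentary groups outside aged plantaris, at 17.98 to 21.8 CPM, were lowest.

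Sh2d4a was highest in young PoWeR soleus (22.6 CPM) and the labelled young plantaris PoWeR libraries (20.5 CPM), followed by aged PoWeR soleus (14.5 CPM). Both aged plantaris groups and the 3 other sedentary groups, at 5.05 to 7.97 CPM, overlap with one another. Tmem86a lay on 3 steps, the lower 2 of which overlap, with the 3 PoWeR groups outside aged plantaris at 12.3 to 14.01 CPM, their sedentary counterparts at 5.65 to 6.51 CPM and both aged plantaris groups at 3.77 to 3.80 CPM. Serpinb1a had its 3 highest groups, at 6.57 to 6.88 CPM, in the same 3 PoWeR groups, then aged PoWeR plantaris at 4.01 CPM, and all 4 sedentary groups between 2.38 and 2.86 CPM.

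Genes in the same pathways and families were described from lists drawn up around each gene. Of the 11 tested genes of interleukin 6 and STAT3 signalling, none was called in aged soleus (median log2 fold change 0.08, against 0.00 over all genes tested), and 3 rose in young soleus (median 0.32, against 0.04 over all genes), where 5.97% of all genes were called higher. They were Il6ra, the interleukin 6 receptor (0.77 ± 0.23, adjusted p = 0.0349), Jak2 (0.44 ± 0.11, adjusted p = 0.0156) and Jak1 (0.32 ± 0.10, adjusted p = 0.0357), both kinases of this receptor. The nearest to a call in aged soleus was Tyk2, another such kinase (0.60 ± 0.16, adjusted p = 0.0886). Sh2d4b, the relative of Sh2d4a, was too low to be tested.

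Padi2 was the only 1 of the 4 peptidylarginine deiminase genes in the table with enough reads to be tested in soleus. Padi1 averaged 0.0559 ± 0.0560 CPM in soleus and 0.881 ± 0.580 CPM in plantaris of aged sedentary mice (SD, n = 5 each), and since it passed the filter on low counts through plantaris, no test is given. Of 6 tested genes whose proteins are known targets of citrullination, such as desmin and vimentin, none was called for PoWeR in either soleus comparison (medians 0.14 in aged and -0.11 in young soleus).

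Since Padi2 depends on calcium, 14 genes of calcium release and uptake were read beside it, and 1 rose in aged soleus (median -0.07, against 0.00 over all genes). It was Sln, sarcolipin, an inhibitor of the calcium pump, with 292 ± 128 CPM in aged PoWeR soleus and 124 ± 28.3 CPM in aged sedentary soleus (log2 fold change 1.22 ± 0.25, adjusted p = 0.0312, SD, n = 4 and 5). In young soleus 3 rose and 1 fell (median -0.03, against 0.04), beside 5.97% of all genes called higher and 12.9% called in either direction. Sln rose there too (0.99 ± 0.27, adjusted p = 0.027), with Ryr1, the calcium release channel (0.60 ± 0.16, adjusted p = 0.023) and Cacna1s, its voltage sensor (0.49 ± 0.15, adjusted p = 0.0341). Pln, phospholamban, another inhibitor of the pump, fell, at 6.45 ± 4.68 CPM in young PoWeR soleus and 25.3 ± 6.10 CPM in young sedentary soleus (log2 fold change -1.96 ± 0.56, adjusted p = 0.0337, SD, n = 4 each).

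None of 12 tested genes of plasmalogen metabolism other than Tmem86a was called for PoWeR in aged or young soleus (medians -0.01 and 0.10). Tmem86b, the related lysoplasmalogenase gene, averaged 1.19 ± 0.361 CPM in aged PoWeR soleus and 2.43 ± 0.559 CPM in aged sedentary soleus (SD, n = 4 and 5), opposite in direction to Tmem86a and not called (log2 fold change -1.04 ± 0.46, adjusted p = 0.343). Of 19 genes of the LXR and SREBP1 programme, to which Tmem86a is known to belong as an LXR target, 4 rose and 0 fell in aged soleus, where 0.469% of all genes were called higher (median 0.24, against 0.00 over all genes). In young soleus 5 rose and 0 fell, where 5.97% of all genes were called higher (median 0.30, against 0.04).

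Fasn, fatty acid synthase, had 35.8 ± 8.89 CPM in aged PoWeR soleus and 11.1 ± 2.52 CPM in aged sedentary soleus (log2 fold change 1.68 ± 0.26, adjusted p = 0.0097, SD, n = 4 and 5). Elovl6, a fatty acid elongase, rose in aged (1.76 ± 0.41, adjusted p = 0.0451) and young soleus (1.35 ± 0.36, adjusted p = 0.0202). In aged soleus Mylip, a ligase that degrades the LDL receptor (0.76 ± 0.14, adjusted p = 0.0131), and Srebf1, the lipogenic transcription factor (0.72 ± 0.15, adjusted p = 0.0228), rose as well. In young soleus the other risers were Fasn (1.01 ± 0.27, adjusted p = 0.0241), Abca1, a cholesterol exporter (1.20 ± 0.26, adjusted p = 0.0104), Acly (0.59 ± 0.17, adjusted p = 0.0263) and Lpcat3 (0.46 ± 0.12, adjusted p = 0.0228). Fat cells express several of these genes, so their own markers are given. The 9 fat cell markers listed summed to 3081 to 3999 CPM in aged PoWeR soleus and 3419 to 4641 CPM in aged sedentary soleus, most of it from Car3. The other 8, without Car3 because muscle expresses it (left out after its values were seen), none of them at 0, summed to 262 to 444 CPM in aged PoWeR soleus and 214 to 531 CPM in aged sedentary soleus. In young soleus these 8 summed to 164 to 231 CPM with PoWeR and 246 to 347 CPM without, lower with PoWeR and without overlap. The aged groups overlap, and the part of fat cells in the levels of these genes was not tested.

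**Figure D4:**
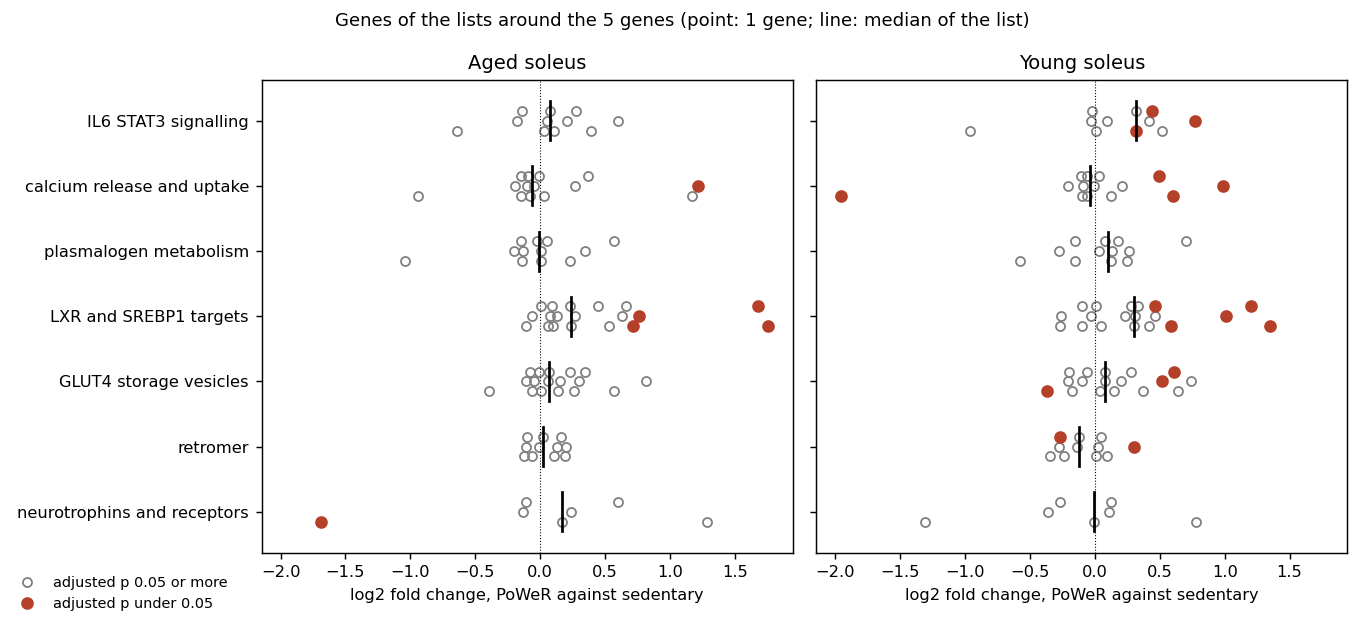
Log2 fold change of PoWeR against sedentary (horizontal axis) for the genes of 7 lists in aged soleus (left panel) and young soleus (right panel); each point is 1 gene other than the 5, filled where its adjusted p is under 0.05, and black lines are list medians. LXR and SREBP1 targets have 4 filled points in aged and 5 in young soleus, all right of 0, and plasmalogen metabolism has none.

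Of 5 tested clade B serpins other than Serpinb1a, none was called for PoWeR in either soleus comparison (medians 0.36 in aged and -0.04 in young soleus), nor was any of 3 tested proteases that serpin B1 is known to inhibit or bind (medians 0.11 and 0.35). Neutrophils are the cells best known for Serpinb1a and its targets, and 9 of 10 neutrophil markers were in the table. Their sum was 2.57 to 6.79 CPM in aged PoWeR soleus and 1.02 to 2.16 CPM in aged sedentary soleus, so it was higher with PoWeR in all libraries, although none of the 3 tested markers was called. The defining markers Mpo, Elane and Camp were at 0 in all aged sedentary soleus libraries. In young soleus Mpo and Elane were at 0 in both groups. The marker sum there was 1.12 to 2.79 CPM with PoWeR and 0.993 to 2.11 CPM without, which overlap. In aged plantaris it was 1.74 to 12.3 CPM with PoWeR and 0.439 to 1.74 CPM without. The part of these cells in the Serpinb1a level was not tested in aged or in young muscle.

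Of the 17 tested genes of GLUT4 storage vesicles other than Sort1, none was called in aged soleus (median 0.07), and in young soleus 2 rose and 1 fell (median 0.08), beside 12.9% of all genes called there. Lnpep, the insulin-regulated aminopeptidase that travels in these vesicles (0.61 ± 0.20, adjusted p = 0.0494), and Gga2, a Golgi adaptor that binds sortilin's tail (0.52 ± 0.13, adjusted p = 0.0144), rose, and Vamp2, a fusion protein of the vesicles, fell (-0.37 ± 0.12, adjusted p = 0.0411). Of 11 retromer and related genes, which return sortilin from endosomes, none was called in aged soleus (median 0.02), and in young soleus Vps26b rose (0.30 ± 0.10, adjusted p = 0.04995) and Snx5 fell (-0.27 ± 0.09, adjusted p = 0.0459), beside the same 12.9% (median -0.12).

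Sorl1, another VPS10 receptor, was lower in soleus than in plantaris, as was Sort1. It averaged 43.3 ± 5.76 CPM in soleus and 108 ± 26.5 CPM in plantaris of aged sedentary mice (log2 fold change -1.31 ± 0.15, adjusted p = 1.05e-06, SD, n = 5 each). It was not called for PoWeR in aged (0.03, adjusted p = 0.956) or young soleus (0.36, adjusted p = 0.0721). Of 7 tested neurotrophins and receptors, Ntf5, neurotrophin 4, fell in aged soleus, at 0.521 ± 0.252 CPM with PoWeR and 1.69 ± 0.596 CPM without (log2 fold change -1.69 ± 0.36, adjusted p = 0.0265, SD, n = 4 and 5), and none was called in young soleus.

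In aged plantaris none of the genes of these lists was called for PoWeR, with Fasn at 26.6 ± 21.5 CPM in PoWeR and 8.32 ± 1.95 CPM in sedentary plantaris (log2 fold change 1.69 ± 0.47, adjusted p = 0.231, SD, n = 4 and 5). In the libraries labelled young plantaris 1 was called, Pln, which fell (-1.77 ± 0.35, adjusted p = 0.0405), the same direction as in young soleus. For aged plantaris, the 8 fat cell markers without Car3 summed to 127 to 1227 CPM with PoWeR (median 184.7). Without PoWeR they summed to 95.7 to 232.5 CPM (median 160.3), which overlaps. Of the 9 fat cell markers, 8 lay above a log2 fold change of 0 there (median 1.5), and none was called. The part of fat cells in the Fasn level of aged plantaris was not tested.

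For each gene the 3 genes with the most similar pattern over the 8 group means were found among 9489 genes, by the root mean square difference of log2 CPM after centring each gene on its own mean. For Sh2d4a they included Plekho1 (0.42) and Hdac11 (0.43), and for Serpinb1a they were Runx1 (0.29), Sh2d4a (0.30) and Hdac11 (0.31). Sh2d4a and Serpinb1a were chosen for the same direction in the 4 soleus groups, which are among the 8 compared, so nothing is read from their likeness. For Padi2 they were Fam131a (0.31), Slc40a1 (0.33) and Gm20683 (0.35), for Tmem86a Lrrn1 (0.26), Kcnn3 (0.27) and Bcl2l1 (0.27), and for Sort1 Angptl2 (0.25), Atp2b3 (0.25) and Sntb1 (0.27). Padi2 spans the widest range of group means, 2.74 on the log2 scale, and Serpinb1a the narrowest, 1.47.

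The genes within 100 kb of each of the 5 were read in the same fits. In aged soleus and in both sets of plantaris libraries none of the tested neighbours was called for PoWeR. In young soleus, where 2 neighbours of Sh2d4a, 4 of Padi2, 3 of Serpinb1a, 2 of Tmem86a and 7 of Sort1 were tested, 4 were called, beside 12.9% of all genes. Mylk4, a myosin light chain kinase gene 58137 bases from Serpinb1a, rose in the same direction as Serpinb1a, at 93.5 CPM with PoWeR and 36.0 CPM without (log2 fold change 1.41 ± 0.25, adjusted p = 0.00558). Sdhb, a subunit of succinate dehydrogenase 8616 bases from Padi2, fell (-0.60 ± 0.15, adjusted p = 0.0145), while Atp13a2, 34286 bases from Padi2, rose (0.44 ± 0.14, adjusted p = 0.0374). Sars, a transfer RNA synthetase gene 63353 bases from Sort1, fell (-0.42 ± 0.10, adjusted p = 0.0119). Neither neighbour of Sh2d4a or of Tmem86a was called for PoWeR in any of the 4 comparisons.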

How the data were processed

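Gene expression was measured by RNA sequencing of 34 libraries. The authors deposited expected counts: estimated read counts per gene, not normalized and partly not whole numbers, for 23011 genes with a summed count of at least 10. Per the submitters' processing notes, STAR 2.7.3a, Partek and DESeq2 were used with mm10, with no role stated for each. Per the labels' protocols, RNA was isolated with TRIzol and a Zymo MicroPrep kit. The protocol text names plantaris for all libraries. Libraries whose source name is plantaris but whose title reads aged soleus were taken as plantaris, by the source name.

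The counts were rounded and fitted with edgeR 4.0.16 in R 4.3.3 (TMM factors, filterByExpr with minimum count 10 and minimum total count 15, robust quasi-likelihood F test), with a mean per group over the 17 libraries of each labelled muscle, and over the 18 aged libraries for soleus against plantaris. A gene was called where its p, adjusted by Benjamini and Hochberg's method over the genes that passed the filter in that fit, was under 0.05. Each of the 5 genes passed the filter in all 3 fits. CPM values were computed with TMM factors over all 34 libraries. Fold changes are PoWeR against sedentary, aged against young or soleus against plantaris. The fits were also run on counts simulated for a single comparison each, and nothing is read from these runs. Replicate numbers of young libraries follow the deposit and pair nothing. Those of aged libraries come from the labels. Same-numbered soleus and plantaris libraries of PoWeR mice deviated together from their group means (r of 0.25 to 0.46 over 9490 genes in 4 pairs). These numbers were therefore taken to pair the muscles of PoWeR mice. No label states this, and soleus and plantaris libraries with unlike numbers were not compared, so the pairing is assumed. The fit with a mean per group leaves this pairing out, and the replicate block uses it. Over all genes together, the smallest chi-square per degree of freedom between 2 replicates was 5.15, so libraries differed by more than counting error. Genes with many reads weigh most in it. The part of counting error in single genes, such as Serpinb1a with 27 to 245 expected counts per library, was not tested.

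The 5 genes, the gene lists, the motifs and the tests were chosen with earlier results of these data known. Up to 3 called genes per list and comparison are named, those with the largest absolute change, or else up to 2 with the smallest p. Srebf1, Cacna1s, Acly and Lpcat3, called but beyond that number, were added after their values were seen. Promoter sequences are from RefSeq. Alternatives were DESeq2 1.42.0, RLE factors, no filter, only the 2 groups compared, a replicate block, a term for an rRNA repeat share under 0.7%, and each library left out in turn. One gene among those with a similar pattern is not reported here.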

Additional observations from a re-analysis of the deposited data

Results flagged for a closer look

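A single library stood far from the others of its group in 2 of the 40 sets of values examined, 5 genes in 8 groups, and chance flags about 1 in 20 such sets. Sh2d4a in aged PoWeR plantaris was 5.51 CPM in replicate 14, below 8.48 to 9.04 CPM in the other libraries, with a gap of 0.841 of the group's range. The same library had the lowest neutrophil (1.74 CPM) and macrophage (73.7 CPM) marker sums of its group. It also had the highest fast fibre (160700 CPM) and satellite cell (153.5 CPM) marker sums. The part of these sums in the Sh2d4a value was not tested. Padi2 in the PoWeR libraries labelled young plantaris was 46.5 CPM in replicate 2, below 69.9 to 73.2 CPM in the others, with a gap of 0.876 of the range. That library had the highest level of the other 4 genes in its group.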

How the results depend on the processing

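For the libraries labelled young plantaris, 3 genes were called, and DESeq2 and the fit of only the 2 groups called 5 each, the term for the rRNA repeat share called 1, and leaving out a library gave 1 to 3. For age in sedentary soleus the single call became 0 with DESeq2, with RLE factors, with no filter and with every library left out (0 to 0). In the fit of only the 2 groups that call stood. For age in PoWeR soleus the 3 calls became 1 with no filter, with only the 2 groups, with the rRNA term, and 1 to 3 with a library left out, and Padi2 was also lost with DESeq2 (0.43, adjusted p = 0.0528) and RLE factors (0.43, adjusted p = 0.0571). In aged soleus the 4 calls became 1 with the replicate block, which holds 3 shared numbers, and 2 to 5 with a library left out. The numbers shared by PoWeR and sedentary libraries did not deviate together (r of -0.29 to 0.17), nor did all those of the muscles of sedentary mice (0.05 to 0.43), where the block gave Tmem86a 0.59 at adjusted p = 0.0312. In PoWeR mice the block between muscles changed the call of Serpinb1a and of no other of the 5 genes.

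Over all genes, 4 calls in aged plantaris became 119 with DESeq2, 2 with no filter, 0 with only the 2 groups, 0 with the block and 0 to 10 with a library left out. For the libraries labelled young plantaris 34 became 229 with DESeq2, 87 with only the 2 groups, 1 with the rRNA term and 1 to 227. In aged soleus 128 became 377 with DESeq2, 229 with only the 2 groups, 62 with the block and 36 to 172. In young soleus 1920 became 358 with only the 2 groups, 620 with the rRNA term and 602 to 2545. The cause was not tested.

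Signs turned only in values near 0 that were not called. Tmem86a in aged plantaris was -0.01 with no filter and -0.10 to 0.15 with a library left out, Sort1 there -0.23 to 0.07 and Sh2d4a -0.04 to 0.30. Between ages, Serpinb1a was -0.17 to 0.09 in sedentary soleus, and in PoWeR soleus 0.11 with the rRNA term and -0.19 to 0.10 with a library left out, and Tmem86a in PoWeR soleus was -0.14 to 0.25.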
